A study of Homo sapiens with 16 samples.

Results

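The snoRNA host noncoding genes are genes whose spliced RNA has no long open reading frame of known function and whose introns carry small nucleolar RNAs. They were chosen by name: every gene of the SNHG series (small nucleolar RNA host gene followed by a number) together with GAS5, ZFAS1 and DANCR, which gave 31 of the 61906 genes listed for both cell lines. These genes hold 895 of the 251295 listed transcripts, between 2 and 142 transcripts per gene. The study depleted HNRNPH1, a nuclear RNA-binding protein of the splicing machinery, in 2 established cell lines. HT-1080 is a human fibrosarcoma line, and HEK-293T derives from human embryonic kidney and carries SV40 large T. Both lines were transfected with 20 nM of an siRNA against HNRNPH1 (siHNRNPH1) or of a control siRNA (siNegative), and RNA was taken 48 h later from cultures the labels call biological replicates, 3 for each of the 4 groups. Short reads gave 12 libraries, and full-length cDNA sequencing (IsoSeq) gave 1 pool of the replicates for each group. Each line is a single established line, and a single named siRNA treatment stands for the depletion in both.

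A box C/D snoRNA guides 2′-O-methylation of ribosomal RNA, a box H/ACA snoRNA guides pseudouridylation, and scaRNAs do the same for spliceosomal RNAs in Cajal bodies. Most of these are released from introns after splicing, and for those the host transcript has to be transcribed and spliced for the small RNA to be made. Many spliced host RNAs begin with a 5′ terminal oligopyrimidine tract, are loaded on ribosomes, meet an early stop codon and are degraded by nonsense-mediated decay, so that their level depends on translation as well as on transcription. By the RefSeq names of the small RNA genes within their spans, 13 members host box C/D snoRNAs, 10 host box H/ACA snoRNAs, GAS5 and SNHG12 host both kinds, 4 host a scaRNA, and no such gene is named within SNHG27 and SNHG28. RefSeq also lists 1 snoRNA gene under a placeholder symbol within SNHG28 and 1 more within each of SNHG1, SNHG14 and SNHG17, which the IsoSeq counts include. The label therefore holds by name for 29 of the 31 genes. For this grouping the strand of the small RNA gene and its place in an intron or exon were not checked, so host here means position within the span. The small RNAs themselves were not analysed here: the 528 snoRNA rows of the tables held only 0.000356% to 0.000562% of a library's counts.

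The start of the transcript is shown because the oligopyrimidine tract lies there. Each line gives 30 bases on the strand of the gene from the RefSeq promoter table (GRCh38.p14), 10 before and 20 from the annotated start, with capitals marking a C followed by at least 4 C or T letters that begins within 5 bases of that start.
ZFAS1, chr20:49278632-49278661, plus strand: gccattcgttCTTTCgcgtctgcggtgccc
SNHG5, chr6:85678714-85678743, minus strand: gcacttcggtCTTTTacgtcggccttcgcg
SNHG32, chr6:31834906-31834935, plus strand: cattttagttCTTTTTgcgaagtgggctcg
SNHG19, chr16:2155339-2155368, minus strand: ccgcccctgtCTTTTCggggtcgagtccga
SNHG12, chr1:28581854-28581883, minus strand: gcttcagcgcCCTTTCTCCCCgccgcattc
SNHG4, chr5:139274091-139274120, plus strand: ctcccggctgCCCTTTCCCCTCCggcctct
SNHG16, chr17:76557754-76557783, plus strand: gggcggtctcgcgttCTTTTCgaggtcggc
DANCR, chr4:52712384-52712413, plus strand: tgcgcgccccgCCCTTgcccagagtcttcc
SNHG1, chr11:62855866-62855895, minus strand, no match: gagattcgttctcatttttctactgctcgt
In ZFAS1, SNHG5, SNHG32, SNHG19, SNHG12 and SNHG4 the tract begins at the annotated start itself, and in DANCR and SNHG16 it begins 1 and 5 bases downstream. A match was found in 13 of the 27 member windows in the table (48.1%) and in 7408 of all 35116 windows of the same length (21.1%), searched on the strand of the gene. A match describes these letters only, and a window without one says nothing of other start sites of the same gene.

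The summed counts per library were 107.7 M to 121.0 M in HEK-293T and 27.3 M to 32.7 M in HT-1080. Levels are given as CPM, a gene's expected counts scaled to counts-per-million of the library total, and the 3 values of a group are always replicates 1, 2 and 3 in that order. HNRNPH1 itself read 1110, 1100 and 1120 CPM with siNegative and 234, 376 and 394 CPM with siHNRNPH1 in HEK-293T. The HT-1080 libraries gave 635, 606 and 617 CPM against 231, 231 and 228 CPM, so the target was lower in every library labelled siHNRNPH1. Of the 6 genes listed as HEK-293T markers, 4 were higher there than in every HT-1080 library, and of the 9 listed as HT-1080 markers 8 were higher in that line. The HEK-293T siHNRNPH1 replicate 1 stood apart from its group, and it did so at the snoRNA host genes too. Its CPM was above the mean of replicates 2 and 3 for 24 of the 28 host genes tested, with a median log2 ratio of 0.62, against 9503 of all 19966 genes tested and a median of -0.05. The HEK-293T fold changes of the host genes are therefore given with and without this library. It also had the lowest HNRNPH1 of its group, at 234 CPM, so leaving it out removes the deepest depletion. The fits without it set 2 siHNRNPH1 libraries against 3 siNegative libraries. Its removal was chosen for its values, so the adjusted p of those fits are given as a description. In HT-1080, siNegative replicate 2 was above the mean of its group's other 2 replicates for 26 of 29 host genes, by a smaller median log2 ratio of 0.14 against -0.02 for all genes.

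**Figure D1:**
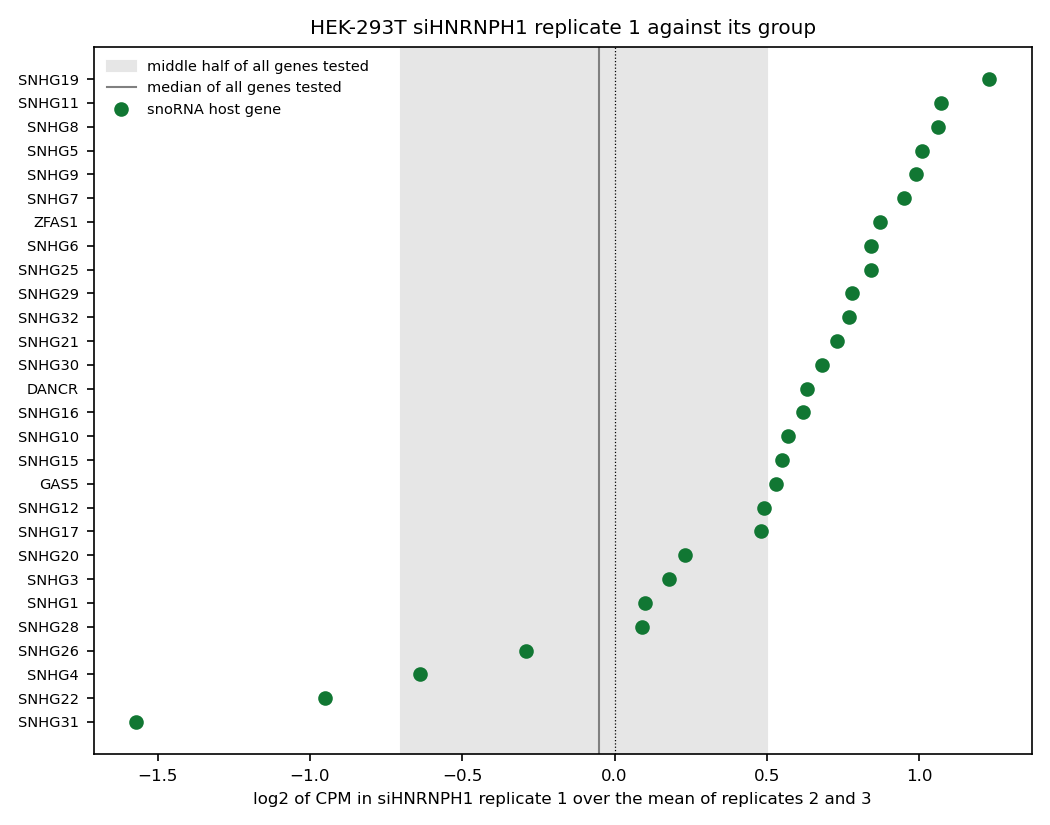
Each point is a tested snoRNA host gene, and the x axis gives the log2 of its CPM in HEK-293T siHNRNPH1 replicate 1 over the mean CPM of replicates 2 and 3 of that group. The grey band spans the interquartile range of all genes tested, from -0.70 to 0.50, and 24 of the 28 host genes lie to the right of 0, up to 1.23 for SNHG19.

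In HT-1080, most host genes changed, in both directions. Of 29 tested, 12 rose and 10 fell with siHNRNPH1 at an adjusted p under 0.05 (edgeR), beside a background of 65.3% of all genes, 32.7% higher and 32.6% lower. A call is therefore common among all genes, and the count of members is read against that. SNHG18, SNHG8, SNHG32, SNHG26 and GAS5 were among those that rose, and SNHG1, SNHG21, SNHG16, SNHG17 and SNHG15 among those that fell. Past 0.5 on the log2 scale, 4 rose and 4 fell, beside 19.7% and 17.5% of all genes. The median log2 fold change was 0.05 over the members and 0.01 over all genes. The 12 that rose include SNHG22 and SNHG25, which entered the test through the siHNRNPH1 libraries where they are high, so the other 10 and the 10 that fell are the counts free of that choice. Scaling by library size alone, without the TMM normalisation factors, moved the split to 13 higher and 7 lower: DANCR, SNHG3 and SNHG9 no longer passed and ZFAS1 did. Without siNegative replicate 2, the counts were 14 higher and 7 lower, beside 70.2% of all genes. In bulk RNA, fewer cells expressing a gene and less of its RNA per cell cannot be told apart.

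In HEK-293T, 4 of 28 tested host genes passed, beside a background of 10.0%: SNHG28 rose (5.12% of all genes did), and SNHG26, SNHG3 and SNHG4 fell (4.88%). At an unadjusted p under 0.05 there were 5 of the 28, beside 5267 of all 19966 genes tested. All 4 were past 0.5 on the log2 scale, beside 5.03% of all genes higher and 4.79% lower by that much. The count depends on the libraries. Without siHNRNPH1 replicate 1, 18 of 28 passed, 4 higher and 14 lower, beside 61.8% of all genes, 30.5% higher and 31.3% lower. Past 0.5 on the log2 scale, 1 then rose and 8 fell, beside 13.2% of all genes in each direction. The members' median log2 fold change was then -0.22, against 0.00 for all genes and against 0.07 for the members with all 6 libraries. Without siNegative replicate 1, 2 or 3 or siHNRNPH1 replicate 2 the count was 0, and without siHNRNPH1 replicate 3 it was 1, SNHG28; between 0% and 3.14% of all genes passed in those fits. The SNHG4 log2 fold change in HEK-293T also missed the threshold when scaled by size factors (adjusted p = 0.0503), by library size alone (0.0701) or without a filter on low counts (0.0775). The SNHG3 log2 fold change in HEK-293T missed it without that filter (adjusted p = 0.0712). SNHG28 entered the HEK-293T test through the siHNRNPH1 libraries where it is high.

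**Figure D2:**
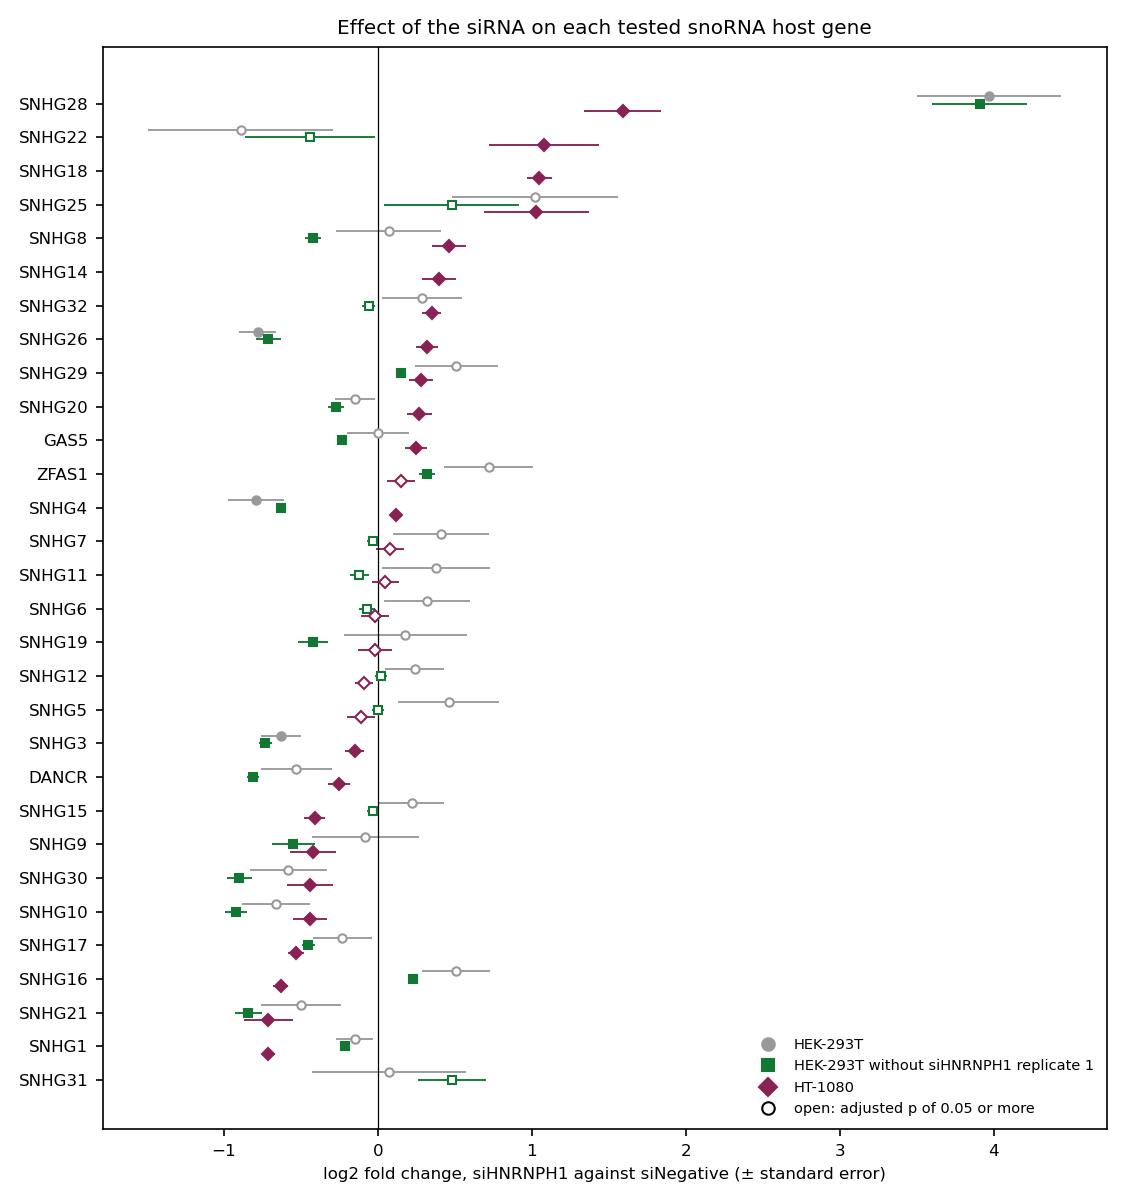
The log2 fold change of each tested host gene, siHNRNPH1 against siNegative, is shown with its standard error for HEK-293T (grey circles), HEK-293T without siHNRNPH1 replicate 1 (green squares) and HT-1080 (red diamonds), and open symbols did not pass the threshold. Leaving out replicate 1 narrows the HEK-293T errors and moves most green squares to the left of the grey circles, while SNHG28 lies far to the right in both lines and SNHG26 and SNHG4 lie on opposite sides of 0.

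Among the box C/D hosts, SNHG1, which carries 8 SNORD genes, fell in HT-1080 with little spread. SNHG1 stood at 116, 118 and 115 CPM with siNegative and 72.6, 77.0 and 74.7 CPM with siHNRNPH1 in that line, 2 groups far apart (log2 fold change -0.71 ± 0.04 SE, adjusted p = 6.06e-07). In HEK-293T it went from 199, 200 and 210 CPM to 195, 177 and 187 CPM, groups that did not overlap but were close (-0.15 ± 0.12, adjusted p = 0.488, and -0.21 ± 0.03, adjusted p = 1.03e-05, without replicate 1). SNHG16, host of SNORD1A, SNORD1B and SNORD1C, moved apart in the 2 lines. It fell in HT-1080 from 157, 171 and 152 CPM to 106, 110 and 109 CPM (-0.63 ± 0.05, adjusted p = 5e-06). In HEK-293T the same gene read 138, 140 and 137 CPM with siNegative and 260, 167 and 172 CPM with siHNRNPH1, all 3 above the controls (0.51 ± 0.22, adjusted p = 0.213; without replicate 1, 0.23 ± 0.03, adjusted p = 5.33e-07).

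ZFAS1, host of SNORD12, SNORD12B and SNORD12C, was higher with siHNRNPH1 in HEK-293T in every library but did not pass with all 6. Its levels there were 24.8, 22.7 and 26.4 CPM against 58.4, 31.9 and 31.9 CPM, with replicate 1 far above the other two (0.72 ± 0.29, adjusted p = 0.191). Without that library ZFAS1 passed at a smaller change (0.32 ± 0.05, adjusted p = 3.55e-05). In HT-1080 its groups overlapped, at 70.4, 88.6 and 70.0 CPM against 84.5, 92.7 and 90 CPM (0.15 ± 0.09, adjusted p = 0.165). SNHG29, host of SNORD49A, SNORD49B and SNORD65, rose in HT-1080 from 560, 680 and 557 CPM to 764 CPM in each of the 3 libraries (0.28 ± 0.08, adjusted p = 0.00927). In HEK-293T it read 205, 196 and 215 CPM against 408, 240 and 236 CPM, again with no overlap (0.51 ± 0.27, adjusted p = 0.292; without replicate 1, 0.15 ± 0.03, adjusted p = 0.000734).

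SNHG5, host of SNORD50A and SNORD50B, shows how far the single library reached. It read 77.3, 74.0 and 81.4 CPM with siNegative and 162, 78.2 and 82.7 CPM with siHNRNPH1 in HEK-293T, so replicates 2 and 3 lay within or just above the controls (0.46 with all libraries, 0.00 without replicate 1). In HT-1080 the values were 98.9, 127 and 97.4 CPM against 103, 106 and 105 CPM, with the highest value in siNegative replicate 2. SNHG6, host of SNORD87, behaved alike in HEK-293T, at 23.2, 22.9 and 22.8 CPM against 41.1, 21.6 and 24.1 CPM (0.32, and -0.07 without replicate 1, neither called). In HT-1080 SNHG6 read 49.8, 62.0 and 50.2 CPM against 53.6, 58.2 and 56.2 CPM, overlapping groups. SNHG32, host of SNORD48 and SNORD52, rose in HT-1080 from 61.7, 67.8 and 59.1 CPM to 80, 87.5 and 84.9 CPM without overlap (0.35 ± 0.06, adjusted p = 0.000788). Its HEK-293T values were 41.5, 42.3 and 43.6 CPM against 72.4, 42.3 and 42.5 CPM, where only replicate 1 was above the control range (0.29, and -0.06 without it, neither called).

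SNHG26, host of SNORD93, changed in opposite directions in the 2 lines with every library of one group beyond every library of the other. It fell in HEK-293T from 7.16, 6.98 and 7.35 CPM to 3.69, 4.54 and 4.55 CPM (-0.78 ± 0.12, adjusted p = 0.0187; without replicate 1 -0.71, adjusted p = 3.93e-08), and here replicate 1 was the lowest library. In HT-1080 SNHG26 rose from 8.39, 8.67 and 8.66 CPM to 11, 11.1 and 11.6 CPM (0.32 ± 0.07, adjusted p = 0.00285). SNHG30, host of SNORD7, was lower in both lines. It fell in HT-1080 from 3.48, 4.98 and 4.20 CPM to 3.15, 3.49 and 3.13 CPM, with a slight overlap (-0.44 ± 0.15, adjusted p = 0.0243). In HEK-293T SNHG30 read 9.38, 9.66 and 10.9 CPM against 9.05, 5.37 and 5.82 CPM (-0.58, adjusted p = 0.208, and -0.90, adjusted p = 1.29e-09, without replicate 1). SNHG19, host of SNORD60, stood at 3.34, 3.39 and 3.36 CPM in HEK-293T controls and 6.26, 2.68 and 2.54 CPM with siHNRNPH1. The direction of SNHG19 turned when replicate 1 was left out, from 0.18 to -0.42 (adjusted p = 0.81 and 0.001). In HT-1080 SNHG19 read 11.5, 15 and 12.5 CPM against 12.3, 14.1 and 14.1 CPM and did not pass; its fitted change was -0.02 with TMM scaling and 0.05 with library size alone, as for SNHG6.

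The other 3 box C/D hosts were low or present in 1 line, and SNHG18 and SNHG14 are given in full after their values were seen. SNHG18, host of SNORD123, had no count in any of the 6 HEK-293T libraries, which allows at most 0.00438 CPM over the line (3 counts). In HT-1080 SNHG18 rose from 7.36, 7.40 and 6.51 CPM to 15, 15.7 and 15.4 CPM, the largest change among the hosts of named small RNAs with more than 1 CPM in either group (1.05 ± 0.08, adjusted p = 2.04e-06). SNHG14, the long transcript of the imprinted Prader-Willi region that carries 83 named SNORD genes, had 0 or 1 count per HEK-293T library. In HT-1080 SNHG14 rose from 114, 78.7 and 113 CPM to 140, 139 and 142 CPM (0.40 ± 0.11, adjusted p = 0.012). The SNHG14 log2 fold change in HT-1080 did not pass without a filter on low counts (adjusted p = 0.167). SNHG25, host of SNORD104, was below 1 CPM in every library of both lines and rose in HT-1080 (1.03 ± 0.34, adjusted p = 0.0222). In HEK-293T it did not pass (1.02, and 0.48 without replicate 1). SNHG25 passed the filter on low counts in 2 of the 3 siNegative libraries of each line and in all siHNRNPH1 libraries, so its call rests in part on the group where it is high.

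**Figure D3:**
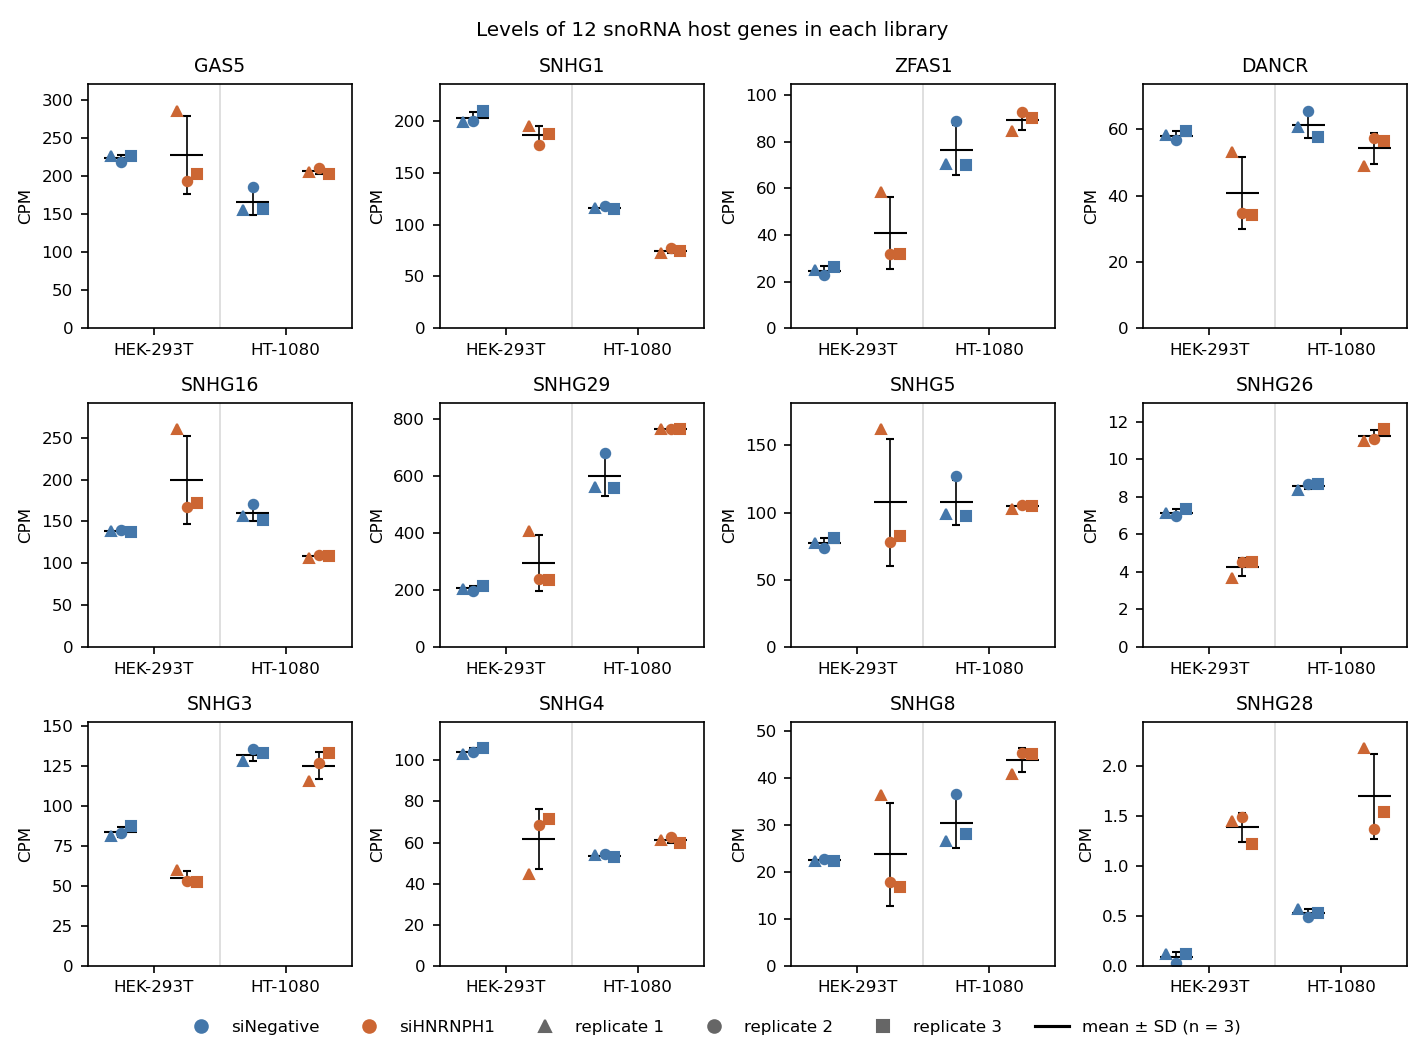
CPM of 12 host genes in each short-read library, with siNegative in blue and siHNRNPH1 in orange, replicates 1 to 3 as triangle, circle and square, and bars for the mean ± SD of 3. SNHG1 and SNHG16 drop in HT-1080, SNHG26 and SNHG4 move down in HEK-293T and up in HT-1080, and the HEK-293T siHNRNPH1 triangle stands above its group for GAS5, ZFAS1, SNHG29, SNHG5 and SNHG8.

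Among the box H/ACA hosts, none rose in HEK-293T in either fit, beside 5.12% and 30.5% of all genes. With all libraries SNHG3 and SNHG4 fell, beside 4.88% of all genes. Without replicate 1, 6 of 10 fell, beside 31.3% lower and 61.8% called in either direction. In HT-1080 SNHG8 and SNHG4 rose and DANCR, SNHG15, SNHG17, SNHG3 and SNHG9 fell, 7 of 9 tested, beside 65.3% of all genes. SNHG3, host of SNORA73A and SNORA73B, fell in HEK-293T from 81.1, 83.2 and 87.5 CPM to 59.9, 53.2 and 52.4 CPM (-0.63 ± 0.13, adjusted p = 0.0374; without replicate 1 -0.73, adjusted p = 1.44e-13). In HT-1080 the fall of SNHG3 was small, from 128, 136 and 133 CPM to 116, 127 and 133 CPM with overlap (-0.15 ± 0.06, adjusted p = 0.0459). SNHG4, host of SNORA74A and SNORA74D, fell in HEK-293T from 103, 104 and 106 CPM to 44.8, 68.5 and 71.4 CPM (-0.79 ± 0.18, adjusted p = 0.0483; without replicate 1 -0.63, adjusted p = 3.37e-13), and replicate 1 was the lowest. In HT-1080 SNHG4 rose slightly, from 53.7, 54.2 and 53.1 CPM to 61.0, 62.5 and 59.8 CPM without overlap (0.12 ± 0.04, adjusted p = 0.0399). Neither the SNHG3 nor the SNHG4 call in HT-1080 held when most single libraries were left out, as given further on.

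DANCR, host of SNORA26, read 58.2, 56.6 and 59.4 CPM in HEK-293T controls and 53.2, 34.7 and 34.2 CPM with siHNRNPH1. All 3 depleted libraries were lower, replicate 1 least (-0.53 ± 0.23, adjusted p = 0.206; without it -0.81 ± 0.04, adjusted p = 2.74e-14). DANCR fell in HT-1080 from 60.7, 65.6 and 57.7 CPM to 48.9, 57.2 and 56.5 CPM (-0.25 ± 0.07, adjusted p = 0.0149), again without overlap, though the nearest libraries differ by under 1 CPM. SNHG17, host of SNORA71A to SNORA71D, fell in HT-1080 from 43.5, 45.5 and 41.8 CPM to 31.4, 32.2 and 31.4 CPM (-0.53 ± 0.05, adjusted p = 1.66e-05). In HEK-293T SNHG17 read 60.0, 60.5 and 61.9 CPM against 64.7, 47.1 and 45.7 CPM, with replicate 1 above the controls and the others below (-0.23, adjusted p = 0.491; without replicate 1 -0.45, adjusted p = 3.01e-10). SNHG15, host of SNORA9, fell in HT-1080 from 39.7, 42.1 and 36.8 CPM to 33.1, 30.9 and 29.4 CPM (-0.41 ± 0.07, adjusted p = 0.000533). In HEK-293T SNHG15 read 77.9, 72.5 and 78.6 CPM against 114, 77.3 and 78.1 CPM, where replicates 2 and 3 lay inside the control range (0.22, and -0.03 without replicate 1, neither called).

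SNHG8, host of SNORA24, rose in HT-1080 from 26.5, 36.6 and 28.1 CPM to 40.8, 45.3 and 45.1 CPM (0.46 ± 0.11, adjusted p = 0.00514). In HEK-293T the control values of 22.3, 22.6 and 22.3 CPM were followed by 36.3, 17.9 and 16.8 CPM, so replicate 1 and the other 2 lay on opposite sides (0.07, adjusted p = 0.914; without replicate 1 -0.42, adjusted p = 1.01e-07). SNHG7, host of SNORA17A and SNORA17B, did not pass in any of the 3 fits. It read 41.5, 40.1 and 41.5 CPM against 80.9, 41.6 and 42.3 CPM in HEK-293T (0.41, and -0.03 without replicate 1), and 56.8, 69.3 and 58.1 CPM against 62.3, 70.3 and 71.4 CPM in HT-1080. SNHG11, host of SNORA71E and SNORA60, did not pass either. Its values were 10.5, 11.1 and 11.7 CPM against 22.5, 10.7 and 10.5 CPM in HEK-293T (0.38, and -0.12 without replicate 1), and 8.59, 9.10 and 8.46 CPM against 9.38, 10.2 and 8.64 CPM in HT-1080. SNHG9, host of SNORA78, fell in HT-1080 from 3.26, 4.28 and 3.83 CPM to 3.36, 2.97 and 2.60 CPM, with overlap (-0.42 ± 0.15, adjusted p = 0.0302). In HEK-293T SNHG9 read 2.25, 1.91 and 1.77 CPM against 2.87, 1.54 and 1.26 CPM (-0.08, adjusted p = 0.916; without replicate 1 -0.55, adjusted p = 0.00203). SNHG31, within whose span SNORA70I lies, stayed below 1 CPM in every library, was tested in HEK-293T only and did not pass (0.07, and 0.48 without replicate 1).

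GAS5 carries 10 SNORD genes and 1 SNORA gene. With all HEK-293T libraries it did not differ between the group means, at 226, 219 and 226 CPM against 286, 193 and 203 CPM (0.00 ± 0.20, adjusted p = 0.992). That mean hides a split: replicate 1 lay above all controls and replicates 2 and 3 below them, and without replicate 1 GAS5 fell (-0.23 ± 0.03, adjusted p = 8.86e-07). In HT-1080 GAS5 rose from 155, 185 and 156 CPM to 205, 211 and 203 CPM without overlap (0.25 ± 0.07, adjusted p = 0.0102). SNHG12, host of SNORD99, SNORA16A, SNORA44 and SNORA61, did not pass in any fit. It read 29.0, 29.8 and 30.8 CPM against 44.1, 31.5 and 31.5 CPM in HEK-293T, no overlap but a small gap apart from replicate 1 (0.24, and 0.02 without it), and 50.9, 56.7 and 55.1 CPM against 50.3, 56.9 and 53.3 CPM in HT-1080.

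Of the 4 scaRNA hosts, all passed in HT-1080, beside 65.3% of all genes. In HEK-293T without replicate 1, 3 of the 4 fell, beside 31.3% lower and 61.8% called in either direction. SNHG10, host of SCARNA13, fell in HT-1080 from 11.3, 14.3 and 12.4 CPM to 9.01, 9.39 and 11.1 CPM (-0.44 ± 0.11, adjusted p = 0.00648). In HEK-293T SNHG10 read 10.7, 9.64 and 10.8 CPM against 8.52, 5.94 and 5.46 CPM, no overlap (-0.66 ± 0.22, adjusted p = 0.12; without replicate 1 -0.92 ± 0.07, adjusted p = 2.87e-10). SNHG21, host of SCARNA15, fell in HT-1080 from 5.71, 5.97 and 4.75 CPM to 2.79, 4.11 and 3.58 CPM (-0.71 ± 0.16, adjusted p = 0.00259). In HEK-293T SNHG21 read 5.09, 5.09 and 5.56 CPM against 5.15, 2.88 and 3.24 CPM, with replicate 1 among the controls (-0.50, adjusted p = 0.298; without it -0.84, adjusted p = 6.51e-08). SNHG20, host of SCARNA16, rose in HT-1080 from 8.60, 8.88 and 8.13 CPM to 10.3, 10.9 and 11.1 CPM (0.27 ± 0.08, adjusted p = 0.0113). The same gene in HEK-293T read 26.7, 26.0 and 25.4 CPM against 26.3, 22.8 and 22.1 CPM (-0.15, adjusted p = 0.513; without replicate 1 -0.27, adjusted p = 2e-05). SNHG22, host of SCARNA17, stayed below 0.5 CPM in every library and passed the filter in HT-1080 through the siHNRNPH1 libraries alone, so it had to be higher there to be tested at all (1.08 ± 0.36, adjusted p = 0.0252). In HEK-293T SNHG22 did not pass (-0.89, and -0.44 without replicate 1).

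SNHG28, with only a snoRNA gene under a placeholder symbol in its span, had the largest change among the members tested in either line, from very low counts. In HEK-293T it rose from 0.115, 0.0281 and 0.113 CPM to 1.45, 1.49 and 1.22 CPM (3.97 ± 0.47, adjusted p = 0.00999; without replicate 1 3.91 ± 0.31). In HT-1080 SNHG28 rose from 0.568, 0.492 and 0.523 CPM to 2.18, 1.37 and 1.54 CPM (1.59 ± 0.25, adjusted p = 0.000335). SNHG28 passed the filter in 2 of 3 HEK-293T siNegative libraries and all siHNRNPH1 libraries, so it was tested in HEK-293T through the group where it is high and its fold change there is a description. It overlaps the protein-coding genes SLAMF8 and VSIG8. In HT-1080, SLAMF8 had 43, 40 and 29 counts with siNegative and none in any siHNRNPH1 library, the opposite of SNHG28. VSIG8 had no count with siNegative in HEK-293T and 17.2, 16.6 and 0 expected counts with siHNRNPH1. The strand of the libraries is not given in the sources used here, so reads of these 3 genes may have been divided between them, and that part of the change was not tested. SNHG27 had 1 count in 1 HEK-293T library and none in the other 11 libraries.

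Overlap with a coding gene concerned 14 of the 31 members, and the partners that were tested and changed are given here. RCC1, which shares its locus with SNHG3, fell in HT-1080 by 0.96 on the log2 scale (adjusted p = 5.12e-07) while SNHG3 fell by 0.15. TRNAU1AP at SNHG12 fell in HT-1080 by 0.87 (adjusted p = 8.64e-06) while SNHG12 did not pass. At hosts that rose in HT-1080, ZBTB37 at GAS5 rose by 0.40 (adjusted p = 0.0198), UBE3A and SNRPN at SNHG14 by 0.52 and 0.31 (adjusted p = 3.09e-05 and 0.00329) and MYO5B at SNHG22 by 0.23 (adjusted p = 0.00398). SEC14L1 at SNHG20 went opposite to its host there (-0.26, adjusted p = 0.00506). LRRC75A at SNHG29 rose in HEK-293T by 0.84 (adjusted p = 0.0278) and fell in HT-1080 by 1.03 (adjusted p = 0.0088), the second opposite to SNHG29. MATR3 at SNHG4 is listed under 2 identifiers, and neither passed in HEK-293T with all libraries (-0.36, adjusted p = 0.288, and -0.20, adjusted p = 0.793). Without replicate 1 both passed, in opposite directions (-0.19, adjusted p = 8.66e-06, and 0.16, adjusted p = 0.000497). In HT-1080 the first identifier fell, opposite to SNHG4 (-0.20, adjusted p = 0.00524), and the second did not pass (0.43, adjusted p = 0.349). Of the other partners in HEK-293T without replicate 1, RCC1 (-0.24), TRNAU1AP (-0.76), UBE3A (-0.35), MYO5B (-0.30) and DIPK1B at SNHG7 (-0.31) fell, and LRRC75A (0.75), ZBTB37 (0.09) and SEC14L1 (0.13) rose. How reads were shared between such partners was not tested.

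Set side by side, 27 host genes were tested in both lines. With all libraries, 4 were called in both lines, beside 6.89% of all genes tested in both. Of these, 2 were called in the same direction in both lines, SNHG28 higher and SNHG3 lower, beside 5.42%. SNHG28 entered the HEK-293T test through the siHNRNPH1 libraries where it is high. Its place in these counts and in those without replicate 1 is therefore a description. SNHG26 and SNHG4 were called in opposite directions, beside 1.47%. Without HEK-293T siHNRNPH1 replicate 1, 16 were called in both, beside 46.9%, of which 10 went in the same direction and 6 in opposite directions, beside 31.7% and 15.2% of all genes. The 8 of these that fell in both lines were DANCR, SNHG1, SNHG10, SNHG17, SNHG21, SNHG3, SNHG30 and SNHG9, and SNHG28 and SNHG29 rose in both. GAS5, SNHG16, SNHG20, SNHG26, SNHG4 and SNHG8 went opposite ways.

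The difference of the siRNA effect between the lines was tested directly by the interaction of line and siRNA over all 12 libraries. This fit gave each gene 1 spread shared by both lines, unlike the fits within a line. The interaction passed for 5 of 28 members, beside 19.0% of all genes, 8.13% with a higher and 10.8% with a lower value in HT-1080. All 5 differences were past 0.5 on the log2 scale, beside 7.53% and 10.1% of all genes. SNHG26 was more positive in HT-1080 by 1.03 ± 0.13 (adjusted p = 0.000326) and SNHG4 by 0.84 ± 0.17 (adjusted p = 0.00589). SNHG1 was more negative in HT-1080 by -0.64 ± 0.13 (adjusted p = 0.00626), SNHG16 by -1.23 ± 0.26 (adjusted p = 0.00712) and SNHG28 by -2.44 ± 0.53 (adjusted p = 0.00841). Each of these 5 passed in all 12 fits that left out 1 library. SNHG28 had only 12.77, 3.27 and 13.71 expected counts in the HEK-293T siNegative libraries. It entered the test within that line through the siHNRNPH1 libraries where it is high. Its difference between the lines and its place in the interaction counts are therefore a description. The SNHG1 interaction missed the threshold without a filter on low counts (adjusted p = 0.0584). Without HEK-293T siHNRNPH1 replicate 1 the count was 14 of 28, beside 49.0%, adding among others SNHG8 (0.83, adjusted p = 0.00017), DANCR (0.51, adjusted p = 0.000121) and GAS5 (0.43, adjusted p = 0.000501), each more positive in HT-1080. SNHG14, SNHG18 and SNHG27 have no HEK-293T level to compare and were left out of these counts.

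By the tract in the start windows, of 12 members with a tract tested in HT-1080, 4 rose and 3 fell (median log2 fold change 0.03), and of 13 without one 7 rose and 5 fell (median 0.25). In HEK-293T with all libraries, 0 rose and 1 fell of 12 with a tract (median 0.21), and 1 rose and 2 fell of 12 without (median -0.33). In HEK-293T without replicate 1 the counts were 2 higher and 5 lower of 12 with a tract (median -0.04) and 2 higher and 8 lower of 12 without (median -0.35). Beside these counts, 32.7% of all genes rose and 32.6% fell in HT-1080. In HEK-293T 5.12% rose and 4.88% fell with all libraries, and 30.5% rose and 31.3% fell without replicate 1. The difference between the members with and without a tract was not tested. GAS5, SNHG1 and SNHG29 are among the members without a tract, which holds for the window at their annotated start only.

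The fold changes are small for many members, and leaving out single libraries shows which rest on 1 of them. In HT-1080, 14 of the 22 calls passed in each of the 6 fits with 1 library left out. The other 8 each failed in at least 1 such fit: DANCR without siHNRNPH1 replicate 1 (-0.18), SNHG20 without siNegative replicate 3, SNHG25 without siHNRNPH1 replicate 2 or siNegative replicate 1, and SNHG22, SNHG3, SNHG30, SNHG4 and SNHG9 in 3 to 5 of the 6. SNHG3 ranged from -0.19 to -0.09 and SNHG4 from 0.10 to 0.14 over those fits. Without siNegative replicate 2, ZFAS1, SNHG7 and SNHG6 passed as higher, at 0.28, 0.17 and 0.09. Whether or not groups overlapped in CPM gave 19 of 29 members apart in HT-1080, beside 70.5% of all genes, and 14 of 28 in HEK-293T, beside 43.7%.

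Within the genes, the share of each transcript in the gene's expected counts was compared by limma on the log odds of the share. No member passed in either line, among 96 transcripts of 23 genes in HEK-293T and 107 transcripts of 26 genes in HT-1080, beside a background of 3.51% and 4.6% of all genes tested. At an unadjusted p under 0.05 there were 17 and 20 transcripts, 15.4% and 18.7% of all transcripts tested passed that mark, and the smallest adjusted p was 0.0512 and 0.0619. limma's diffSplice called 7 members in HEK-293T (GAS5, SNHG1, SNHG15, SNHG29, SNHG32, SNHG8 and ZFAS1), beside 9.33% of all genes, and 6 in HT-1080 (DANCR, SNHG14, SNHG21, SNHG26, SNHG29 and SNHG8), beside 20.9%. Without HEK-293T siHNRNPH1 replicate 1, 11 of 100 transcripts, in 9 of 24 members tested, passed in the log odds test, beside 22.9% of all genes tested. On simulated shares shifted by a log2 odds of 2, the log odds test recovered none of the changed transcripts in HEK-293T and 36.2% in HT-1080, so a count of 0 does not show that the shares were alike.

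Of GAS5's transcripts with at least 10% of the gene in some group, ENST00000689238.1 took 12.5%, 12.3% and 12.6% in HEK-293T controls and 24.1%, 15.6% and 14.9% with siHNRNPH1, and 19.7%, 23.8% and 20.5% against 26.5%, 24.7% and 24.7% in HT-1080. Its depleted libraries were all above the controls in both lines, with adjusted p = 0.41 and 0.373. ENST00000702934.1 went the other way in both lines. Its HEK-293T shares were 10.3% ± 0.79 (SD of 3) and 6.31% ± 0.18, and its HT-1080 shares were 6.90% ± 0.95 and 4.73% ± 1.22 (adjusted p = 0.162 and 0.323; 0.0361 in HEK-293T without replicate 1). ENST00000650796.1 held 15.2% ± 1.37 and 11.8% ± 6.83 in HEK-293T, where replicate 1 alone was low at 3.96%, and ENST00000690941.1 held 10.4% ± 0.50 and 8.55% ± 0.98.

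ZFAS1's leading transcripts were ENST00000441722.5 and ENST00000428008.6. With siNegative and then siHNRNPH1, the first held 35.5% ± 2.01 and 42.1% ± 3.00 in HEK-293T and 31.3% ± 1.20 and 34.5% ± 2.10 in HT-1080 (adjusted p = 0.447 and 0.526). The second held 20.9% ± 0.26 and 16.9% ± 3.76 in HEK-293T, with replicate 1 at the control level and the other two at 14.9% and 14.6% (adjusted p = 0.521; 0.0356 without replicate 1), and its HT-1080 shares overlapped (35.6% ± 3.00 and 34.5% ± 1.32). ENST00000417721.5 held 10.9% and 13% of ZFAS1 in HEK-293T, and ENST00000623640.1 held 12.4% and 7.39%.
DANCR was led by ENST00000411630.7 in all 4 groups, at 61.6% ± 1.37 and 61.2% ± 1.41 in HEK-293T and 61.2% ± 1.55 and 62.3% ± 4.81 in HT-1080. Its ENST00000441504.2 went from 3.80%, 3.53% and 4.04% to 6.63%, 6.78% and 6.56% in HT-1080, 2 tight groups apart (adjusted p = 0.0619), while its HEK-293T shares of 8.11% ± 0.59 and 10.3% ± 2.57 overlapped. ENST00000676262.1 held 27.0% and 24.6% in HEK-293T and 26.8% and 24.1% in HT-1080. SNHG1's ENST00000686500.2 went from 9.78%, 9.89% and 8.82% to 22.2%, 18.5% and 17.7% in HEK-293T (adjusted p = 0.0841; 0.0198 without replicate 1), and its HT-1080 shares of 6.93% ± 1.70 and 8.57% ± 2.55 overlapped. ENST00000656268.1 held 24.1% ± 1.32 and 15% ± 9 of SNHG1 in HEK-293T, with 4.74% in replicate 1, and 16.1% and 17.3% in HT-1080. ENST00000668048.1 reached 10.0% ± 1.09 in HT-1080 controls and 8.26% ± 0.55 after depletion.

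The transcripts of SNHG8, SNHG29, SNHG15 and SNHG21 named next were picked after their values were seen. SNHG8's ENST00000602520.7 had the smallest adjusted p of the members in HEK-293T, 0.0512, which misses the threshold, and it passed without replicate 1 (0.0144). It took 40.9%, 41.3% and 43.9% of SNHG8 in HEK-293T controls and 22.4%, 22.1% and 23.0% with siHNRNPH1, and in this ratio replicate 1 sat with its group. In HT-1080 the same transcript took 11.5%, 14.6% and 15.7% against 9.06%, 8.91% and 6.94% (adjusted p = 0.144), again without overlap. SNHG29's ENST00000663781.2 took 21.0%, 20.8% and 24.1% against 36.7%, 35.8% and 33.3% in HEK-293T and 22.3%, 20.7% and 22.3% against 27.1%, 28.5% and 27.9% in HT-1080 (adjusted p = 0.117 and 0.179; 0.0362 in HEK-293T without replicate 1). SNHG15's ENST00000668580.1 was also higher in both lines, at 11.2% ± 0.15 and 17.6% ± 2.58 in HEK-293T and 12.7% ± 1.5 and 21.3% ± 1.42 in HT-1080 (adjusted p = 0.207 and 0.0854; 0.0367 in HEK-293T without replicate 1). SNHG21's ENST00000558174.5 went from 45.2%, 42.4% and 33.9% to 19.2%, 11.2% and 16.6% in HT-1080 (adjusted p = 0.0657) and overlapped in HEK-293T. An exact permutation test of 3 against 3 cannot give less than p = 0.1, so for single transcripts it describes separation only. RSEM divides reads between overlapping transcripts, and some divisions jumped between libraries of a group: SNHG1's ENST00000690542.1, also picked after its values were seen, held 10.2%, 0% and 0.116% in the 3 HEK-293T siHNRNPH1 libraries.

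**Figure D4:**
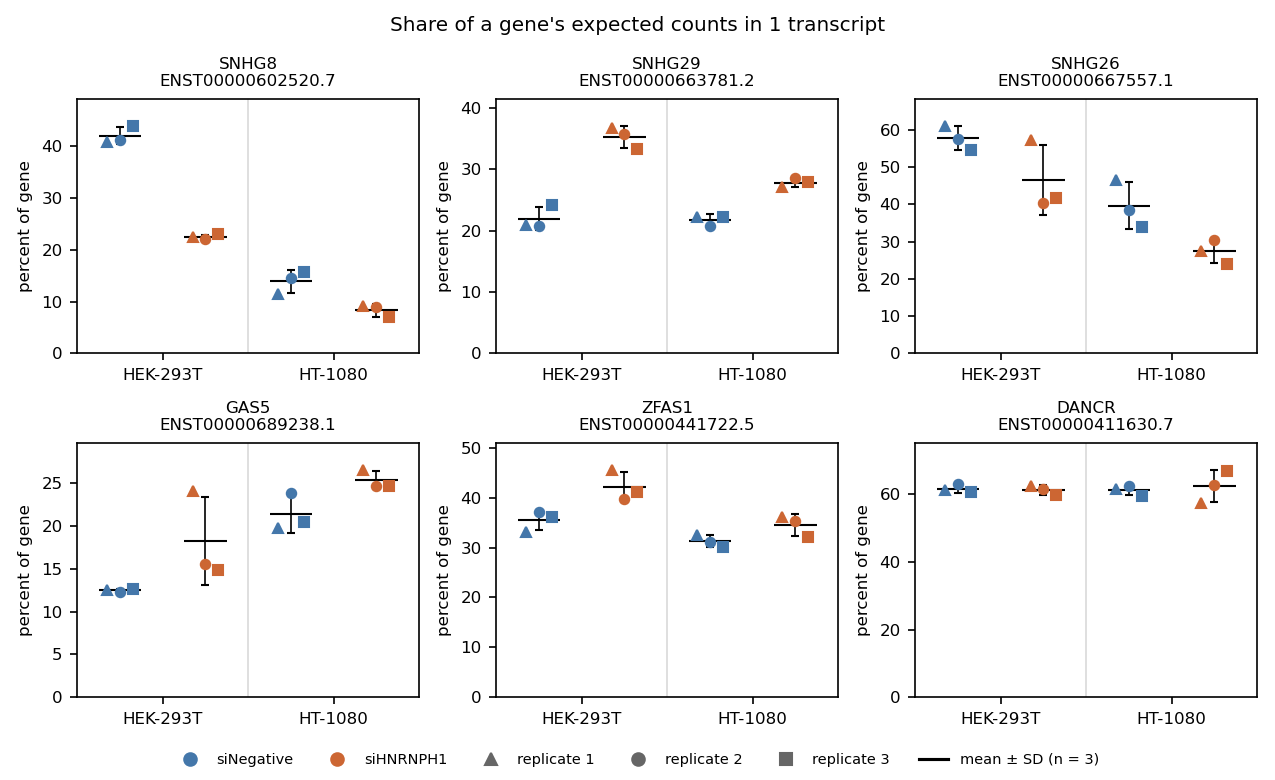
Percent of a gene's expected counts in 1 transcript in each short-read library, for 6 host genes, with siNegative in blue, siHNRNPH1 in orange and bars for the mean ± SD of 3. The share of SNHG8's ENST00000602520.7 is lower and that of SNHG29's ENST00000663781.2 higher after depletion in both lines without overlap, whereas DANCR's leading transcript stays near 61%; none of the 6 passed the threshold with all libraries.

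The IsoSeq pools give full-length transcript models but no read counts, and 1 pool per group allows no test. Models lying at least 90% within a host gene's span numbered 49 in HEK-293T siNegative, 72 in HEK-293T siHNRNPH1, 99 in HT-1080 siNegative and 98 in HT-1080 siHNRNPH1, at 15, 14, 23 and 25 of the host genes. A model that keeps a snoRNA in an exon holds that sequence without the splice that would release it, and where such models come from was not tested. At SNHG15, SNHG6 and SNHG9 the strand of the gene was not at hand, so models of either strand were counted. In HEK-293T, 42 of 49 models (85.7%, exact 95% interval 72.8% to 94.1%) and 60 of 72 (83.3%, 72.7% to 91.1%) did so. In HT-1080 it was 37 of 99 (37.4%, 27.9% to 47.7%) and 31 of 98 (31.6%, 22.6% to 41.8%). Every model in a span was counted, whether or not it reached over a snoRNA. The HT-1080 pools held 7 and 9 models at SNHG14, which had none in HEK-293T, and 0 and 1 of them kept a snoRNA. SNRPN and SNURF overlap SNHG14, and whether these models are theirs was not tested. The set of loci with models differed between the lines, and its part in the difference was not tested. The shares with either siRNA lie close within a line, and those of the 2 lines lie apart; the intervals cover counting error only, and models of a gene are not independent. Models of all genes were longer in the HEK-293T pools as well, with median lengths of 3250 and 3094 bases against 2713 and 2821 bases in HT-1080, and the part of that length in the difference was not tested.

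GAS5 had a snoRNA in an exon in 16 of 16 and 23 of 23 models in HEK-293T, and in 10 of 15 and 10 of 14 in HT-1080. SNHG1 models in HEK-293T all kept a snoRNA, 5 of 5 and 11 of 11, and were mostly a single exon spanning the introns. ZFAS1 in HT-1080 had 5 and 3 models with a median of 4 exons, and SNHG32 had 6 and 6, and none kept a snoRNA. Single-exon models made up 16.3%, 15.3%, 13.1% and 7.14% of the host gene models in the order above, against 1.47% to 1.88% of the models of all genes.

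**Figure D5:**
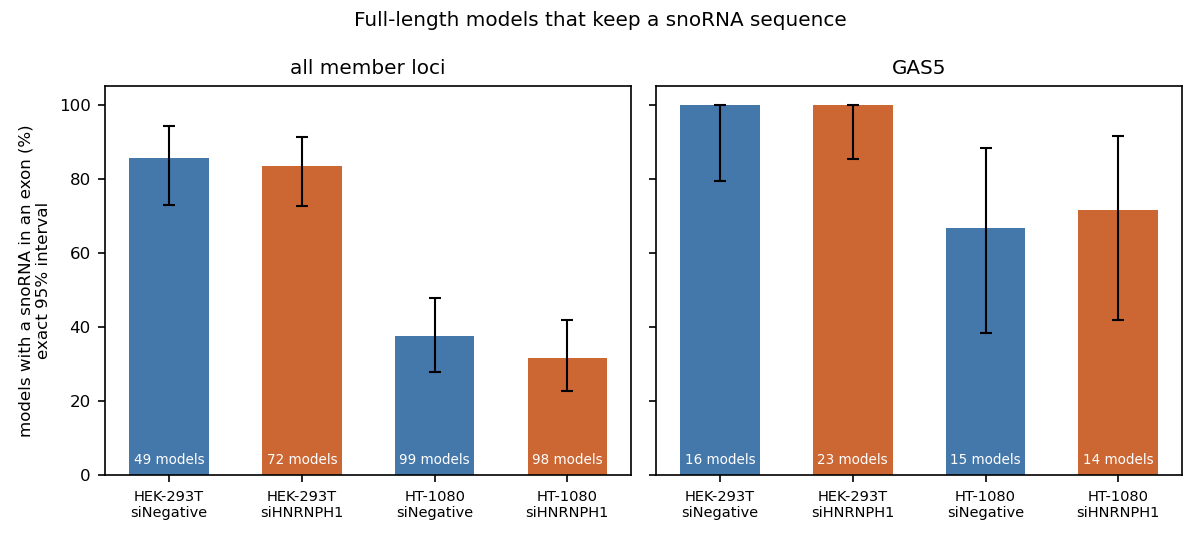
Bars give the percent of IsoSeq models with a snoRNA in an exon, for all host gene loci (left) and GAS5 (right), with exact 95% intervals and the number of models in each bar. Both HEK-293T pools lie above 80% over all loci and both HT-1080 pools below 40%, with little difference between siNegative (blue) and siHNRNPH1 (orange). The loci with models were not the same in both lines.

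The genes that act on these RNAs were described from 4 lists, and their counts are read beside those of all genes tested. In HT-1080 32.7% of all genes rose and 32.6% fell. In HEK-293T 5.12% rose and 4.88% fell with all libraries, and 30.5% rose and 31.3% fell without replicate 1. Of 17 snoRNP proteins and assembly factors, 13 fell and none rose in HT-1080 (median log2 fold change -0.36), among them NOP58, a core box C/D protein (-0.81, adjusted p = 3.71e-07), and GAR1, a core H/ACA protein (-0.81, adjusted p = 1.14e-06). In HEK-293T none passed with all libraries, and 6 rose and 8 fell without replicate 1, with DKC1, the pseudouridine synthase of H/ACA particles, higher by 0.25. Of 20 nonsense-mediated decay factors, 14 fell and 2 rose in HT-1080 (median -0.25). MAGOHB, an exon junction complex subunit, fell by 1.18 there (adjusted p = 1.37e-06) and UPF3B, which links that complex to decay, by 0.78 (adjusted p = 2.81e-06), while the 5′ exonuclease XRN1 rose by 0.42 (adjusted p = 0.00608). In HEK-293T 3 fell with all libraries, including the endonuclease SMG6 (-0.75, adjusted p = 0.0151) and NBAS (-1.26, adjusted p = 0.0151), and 7 rose and 9 fell without replicate 1.

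Of 47 protein-coding snoRNA hosts, 15 fell and 4 rose in HT-1080 (median -0.10), with NCL, encoding nucleolin, at -0.99 (adjusted p = 6.5e-08), EEF1B2, a translation elongation factor subunit, at -1.27 (adjusted p = 4.39e-07) and the helicase EIF4A2 at 0.78 (adjusted p = 2.29e-07). In HEK-293T none passed with all libraries, and 38 fell and 2 rose without replicate 1 (median -0.17), with EEF1B2 at -1.23 and EIF4A2 at 0.57. Of 8 coding genes whose transcripts are known decay targets, 5 fell and 2 rose in HT-1080 (median -0.71), with GADD45A at -0.91 (adjusted p = 2.21e-07) and TBL2 at 0.72 (adjusted p = 1.68e-06). In HEK-293T GADD45B rose by 1.49 (adjusted p = 0.0236) and was the only one of the 8 called with all libraries, and 6 rose and 1 fell without replicate 1. Beside these counts, 65.3% of all genes were called in HT-1080, 32.7% higher and 32.6% lower. In HEK-293T 5.12% of all genes rose and 4.88% fell with all libraries, and 30.5% rose and 31.3% fell without replicate 1.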

How the data were processed

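RNA from 12 short-read libraries and 4 IsoSeq pools was measured. Per the submitters' processing notes, RSEM and GRCh38.p13 were used; aligner, annotation release and strand are not given in the sources used here. The authors deposited RSEM expected counts per transcript, 1 table per line, and IsoSeq transcript models without counts. The counts of a gene's transcripts were added and rounded to whole numbers; every column matched a sample. Members, lists and tests were chosen with earlier results of these data known. edgeR 4.0.16 (quasi-likelihood, TMM, filterByExpr, Benjamini-Hochberg over all genes tested, threshold 0.05) gave fold changes; CPM are counts over the library total. Transcript shares were tested with limma 3.58.1 on log2 odds (pseudocount 0.5, mean share 5% to 95%, at least 20 counts per gene in every library); DESeq2 1.42.0, diffSplice and the settings of the closing section were alternatives. On simulated counts, 3-fold changes were recovered at 52% in HEK-293T (19638 genes) and 96.9% in HT-1080 (15865 genes). Values per library were given for GAS5, ZFAS1, DANCR, SNHG1, members averaging at least 100 counts in both lines, and those called in both lines or by the interaction; transcripts of the first 4 with at least 10% of the gene; and list genes with the smallest adjusted p. Small RNA names and overlaps came from the RefSeq gene table.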

Additional observations from a re-analysis of the deposited data

Results flagged for a closer look

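For 5 host genes the siRNA effect differed between the lines by the interaction of line and siRNA (edgeR, adjusted over all genes). The log2 effect in HT-1080 minus that in HEK-293T was 1.03 for SNHG26, 0.84 for SNHG4, -0.64 for SNHG1, -1.23 for SNHG16 and -2.44 for SNHG28. SNHG26 and SNHG4 were called in both lines with opposite signs. SNHG1 was lower in both lines, more so in HT-1080, and SNHG28 was higher in both lines; its control counts in HEK-293T were near 0 and it entered that test through the siHNRNPH1 libraries, so the size of its difference between the lines is given as a description only. SNHG16 was lower in HT-1080 and higher in every depleted HEK-293T library.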

How the results depend on the processing

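In HEK-293T the count of 4 called host genes became 2 without a filter on low counts and ranged from 0 to 18 when 1 library was left out. The replicate numbers are not said to pair the samples. Correlations of same-numbered deviations were 0.0165 to 0.0529 in HEK-293T and -0.0615 to 0.0281 in HT-1080. Every HEK-293T sample correlated best with its own number, a hint from the data and not the design. With the replicate block the count was 0 in HEK-293T, 22 in HT-1080 and 5 for the interaction. In HT-1080 the 22 calls became 6 when all 12 libraries shared one spread, and 17 to 21 with 1 library left out; DESeq2 gave 16. The interaction count of 5 ranged from 5 to 14. Transcript usage, 0 in both lines, gave 1 gene in HEK-293T with a pseudocount of 5, 1 in HT-1080 with shares of 1% to 99%, 7 and 6 by diffSplice, and 0 to 9 in HEK-293T and 0 in HT-1080 with 1 library left out. A length correction could not be run, since lengths were at hand for 49.4% of genes, under the 80% set as the minimum. No called change of a member reversed.

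Changes that did not pass with all libraries reversed as follows; the cause was not tested. In HEK-293T GAS5 was -0.01 with DESeq2, -0.02 without a filter and -0.03 with the replicate block, SNHG31 was -0.11 and SNHG8 -0.04 with the block. In HT-1080 SNHG19 and SNHG6 were 0.05 with library size alone. For the interaction, SNHG25 was 0.08 with library size alone and 0.06 without a filter, and SNHG32 was 0.00 with DESeq2, 0.12 with library size alone, 0.10 without a filter and 0.05 with the block; library size alone moved the interaction median over all genes from -0.07 to 0.04. With 1 library left out, the HEK-293T values ranged from -0.23 to 0.12 for GAS5, -0.12 to 0.58 for SNHG11, -0.03 to 0.32 for SNHG15, -0.42 to 0.41 for SNHG19, -0.23 to 0.48 for SNHG31, -0.06 to 0.44 for SNHG32, 0.00 to 0.66 for SNHG5, -0.07 to 0.50 for SNHG6, -0.03 to 0.59 for SNHG7, -0.42 to 0.27 for SNHG8 and -0.55 to 0.15 for SNHG9. The HT-1080 values ranged from -0.02 to 0.10 for SNHG11, -0.11 to 0.10 for SNHG19, -0.19 to 0.02 for SNHG5 and -0.08 to 0.09 for SNHG6. The interaction ranged from -0.01 to 0.43 for SNHG10, -0.64 to 0.12 for SNHG11, -0.54 to 0.35 for SNHG19, -0.49 to 0.07 for SNHG21, -0.33 to 0.51 for SNHG25, -0.47 to 0.08 for SNHG29, -0.11 to 0.40 for SNHG30, -0.18 to 0.36 for SNHG32, -0.61 to 0.05 for SNHG7 and -0.68 to 0.08 for SNHG9.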
